A study of Mus musculus with 20 samples.

Results

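The cecum of mice fed the Total Western Diet (TWD) with 10% raw potato starch (RPS) was compared with that of mice fed the same diet with 0% RPS. The comparison takes 10 of the 20 mice of the series, chosen by the treatment in their sample labels, with 5 mice on each diet. All were C57BL/6 mice that started the TWD at 3 weeks of age, ate it for 6 weeks, and then ate either the TWD alone or the TWD with RPS for 3 more weeks. The TWD is made to match what Americans eat in fats, sugars, vitamins and minerals, and both groups ate it throughout. RPS is an uncooked starch that resists digestion in the small intestine. The question was which cecal transcripts differ when the highest level of this starch is eaten. The mice are numbered 1 to 5 within each diet by ascending label number. The labels name no litter, cage or batch, so the p-values measure only the spread between mice within a diet. For the tests of genes, that spread was estimated from all 20 mice on 4 diets.

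The cecum is the chamber in which mice ferment starch that escapes digestion. Its bacteria release short-chain fatty acids, mainly acetate, propionate and butyrate, and the epithelium takes them up through monocarboxylate transporters and exchangers and burns butyrate as fuel. The same epithelium secretes mucus and antimicrobial proteins, and makes oxidants at its surface through dual oxidase. The samples were whole tissue, so that mucosa, smooth muscle and immune cells were sequenced together, and fewer cells of a type and less RNA per cell cannot be told apart.

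Total counts per mouse ranged from 25106282 to 38064842 with 0% RPS and from 20850393 to 39822132 with 10% RPS, and did not separate the diets. Values below are CPM, counts scaled to library size, with TMM factors. The highest of the cecal epithelium genes was Krt19, an epithelial keratin, at a mean of 3071 CPM, and Car1, a carbonic anhydrase of colonocytes, reached 21882 CPM. Of the 21 marker lists, those of the Paneth and enteroendocrine cells each had 1 gene with no counts in any of the 10 mice. Smooth muscle markers summed to 4563, 3448, 4681, 3969 and 7819 CPM in the mice fed 0% RPS and to 8154, 8059, 9228, 5614 and 6406 CPM in those fed 10% RPS. Mouse 5 fed 0% RPS stood apart from the others of its diet. A chi-square per degree of freedom between the counts of a pair of mice was 90.2 to 106 for its pairs and 13.8 to 47.8 for the other pairs within a diet, and its mitochondrial share of counts was 13% against 9.04 to 10.4% in the other 4. The calls without it are given below. Its smooth muscle level lay within the range of the mice fed 10% RPS, and the other 4 mice fed 0% RPS lay below all of the latter. B cell markers summed to 57.1, 331, 15.2, 34.6 and 14.4 CPM with 0% RPS and to 349, 27.3, 454, 387 and 439 CPM with 10% RPS. Mouse 2 was the exception in each group. The exact permutation test, two-sided over 24 single measures, gave p = 0.0397 for smooth muscle and p = 0.0397 for B cells, and both had an adjusted p of 0.19.

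Of 15348 genes tested, 84 (0.547%) were higher and 76 (0.495%) were lower with 10% RPS at an adjusted p of at most 0.05 and a fold change of at least 1.5. The 160 genes are 1.04% of those tested, and 285 (1.86%) passed the adjusted p without regard to fold. Both groups of genes had a similar size of change, with a median log2 fold change of 0.88 among the higher and -0.87 among the lower. Among the called genes, all 5 mice fed 10% RPS lay beyond all 5 fed 0% RPS for 50 of the 84 higher genes and 64 of the 76 lower genes, against 4.88% of all genes tested in either direction, 1.68% above and 3.2% below. At an unadjusted p under 0.05, 1495 genes (9.74%) were higher and 1497 (9.75%) were lower. In the diet where each was more abundant, the higher genes had a median of 15.7 CPM and the lower genes a median of 44.9 CPM.

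**Figure D1:**
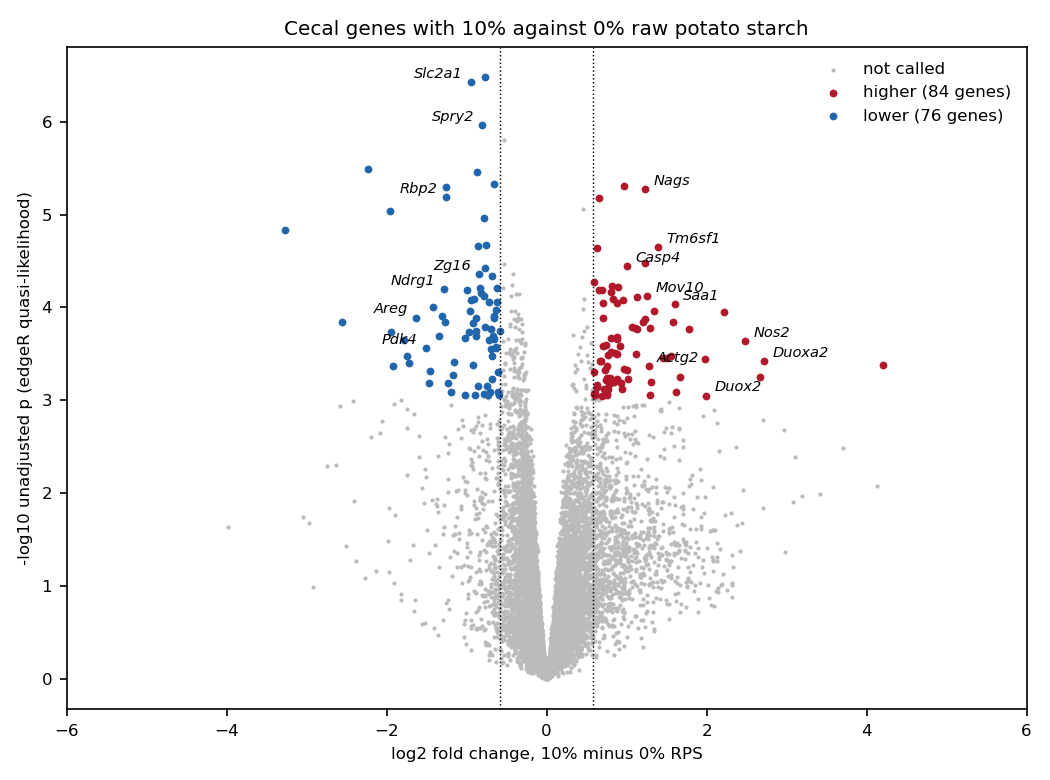
Log2 fold change of every tested gene (horizontal axis, 10% minus 0% RPS) against the negative log10 of its unadjusted edgeR p (vertical axis). Red points are the 84 higher and blue points the 76 lower genes, and dotted lines mark a fold change of 1.5. Slc2a1 and the unlabelled point beside it, 4931406C07Rik, have the lowest p.

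The number of genes called depended on the mice included. Without mouse 1, 2, 3, 4 or 5 fed 0% RPS, the calls were 51, 233, 9, 15 and 18 higher and 47, 111, 25, 27 and 24 lower. Without mouse 1, 2, 3, 4 or 5 fed 10% RPS, they were 8, 16, 4, 163 and 37 higher and 11, 18, 10, 139 and 43 lower. All 160 genes kept their direction and an unadjusted p under 0.05 in each of these 10 fits, and 13 stayed past both thresholds in all of them. The 13 were Cytip, Nags and Itih5 among the higher, and 4931406C07Rik, Slc2a1, Spry2, Stc1, Ier3, Cyp2c55, Plau, Rbp2, Olr1 and Abcb1a among the lower. They were picked out after their values were seen, and each of the other called genes lost its call in at least 1 fit. With the level of the smooth muscle markers as a covariate edgeR called 0 genes, while 2756 had an unadjusted p under 0.05.

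**Figure D2:**
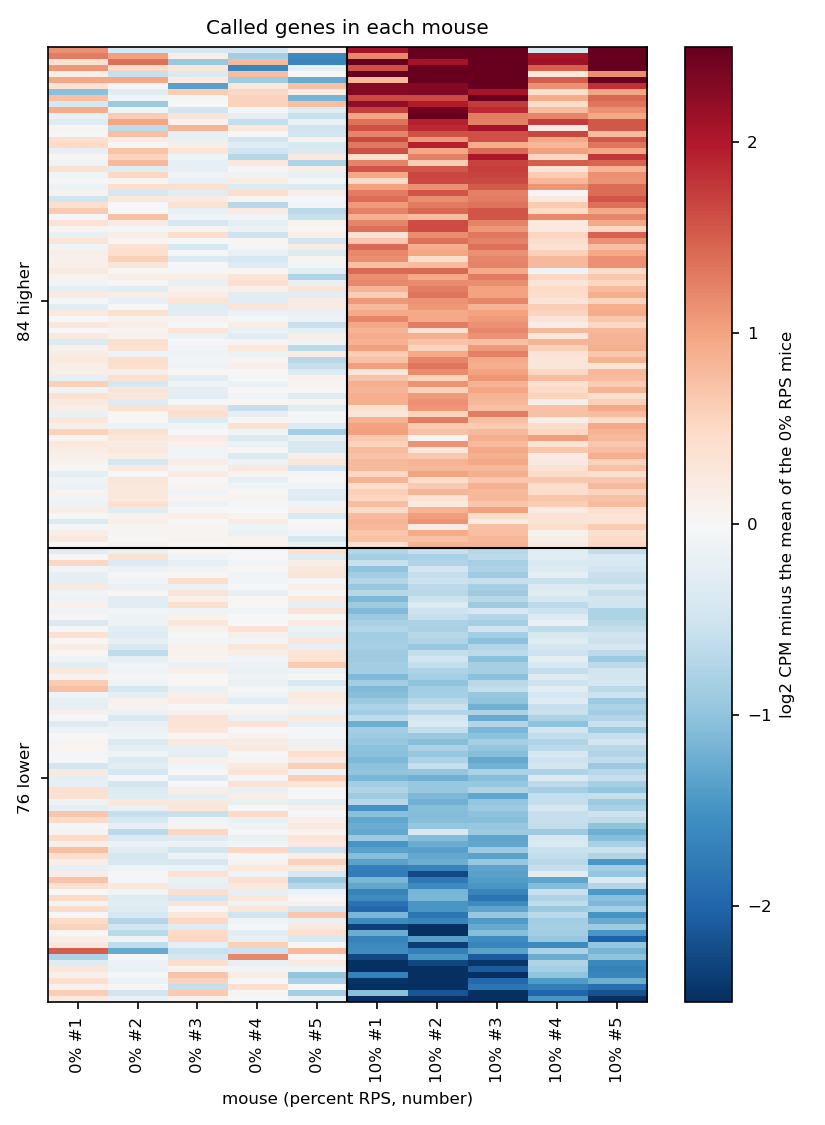
Log2 CPM of the 160 called genes (rows) in each of the 10 mice (columns), minus the mean of the mice fed 0% RPS. Red is above and blue is below that mean, the 84 higher genes stand above the line and the 76 lower below it. Mouse 4 fed 10% RPS shows paler colors than the other mice of its diet.

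Of 12 tested genes for the oxidant-producing enzymes of the epithelium, 4 were called higher, against 0.547% of all genes, and none lower, and the list had a median log2 fold change of 0.85 against 0.004 over all genes. Nos1 and Nos3 had estimates below 0, and Nos3, the endothelial nitric oxide synthase, had -0.65 ± 0.23 (SE) on the log2 scale (edgeR adjusted p = 0.129). Duox2 makes hydrogen peroxide at the apical surface, Duoxa2 is the maturation factor that it needs, Noxa1 activates an NADPH oxidase, and Nos2 makes nitric oxide. Duox2 had 83.9, 83.5, 49.1, 23 and 17.7 CPM with 0% RPS and 74.9, 244, 337, 123 and 242 CPM with 10% RPS. Mouse 1 fed 10% RPS was within the range of the mice fed 0% RPS and the other 4 were above it. The increase was 3.97-fold (log2 1.99 ± 0.50 (SE), edgeR adjusted p = 0.0487). Duoxa2 had 12, 10.0, 5.48, 2.65 and 1.58 CPM and 11.3, 49.2, 77, 21 and 49.4 CPM, with the same overlap in mouse 1. The increase was 6.58-fold (log2 2.72 ± 0.62 (SE), edgeR adjusted p = 0.0347). Nos2 was low, with 1.46, 0.956, 0.825, 0.168 and 0.545 CPM against 2.13, 5.19, 8.66, 1.98 and 4.13 CPM, and the groups did not overlap. Its increase was 5.6-fold (edgeR adjusted p = 0.0289). Noxa1 rose 1.5-fold from 42.9 ± 3.32 CPM to 64.5 ± 12.4 CPM (SD, n = 5, edgeR adjusted p = 0.0251).

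Duox2 and Duoxa2 are immediate neighbors on chromosome 2 of GRCm39, run in opposite directions, and have 449 bases between their annotated gene bodies. The 250 bases before the start of Duoxa2 (chr2:122129130-122129379, plus strand) lie in this gap and are shown because both genes moved together.
Duoxa2: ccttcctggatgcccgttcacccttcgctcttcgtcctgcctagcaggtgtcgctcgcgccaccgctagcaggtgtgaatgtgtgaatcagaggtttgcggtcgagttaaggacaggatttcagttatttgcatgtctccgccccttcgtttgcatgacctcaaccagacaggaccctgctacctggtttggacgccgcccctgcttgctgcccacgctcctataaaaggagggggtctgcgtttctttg
No motif is marked in it. The other called genes that adjoin in the annotation of protein-coding genes were Areg and Btc, ligands of the EGF receptor on chromosome 5, and Cyp2d9, Cyp2d12 and Cyp2d34 on chromosome 15.

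Of 15 antimicrobial proteins of the epithelium 1 was called higher and 1 lower, against 0.547% of all genes higher and 0.495% lower, and 6 estimates were below 0. Of 23 genes of pattern recognition and the inflammasome 1 was called higher, against the same 0.547%, and none lower. Saa1, an acute-phase apolipoprotein, had 149.6, 73.6, 57.1, 76.1 and 64 CPM with 0% RPS and 259, 422, 289, 134 and 173 CPM with 10% RPS. One mouse of each diet overlapped the other group, and the increase was 3.04-fold (edgeR adjusted p = 0.0251). Casp4, a caspase that senses bacterial lipopolysaccharide, had 24.7, 20.5, 19.7, 20.1 and 13.9 CPM and 31.1, 50.5, 45.8, 26.8 and 43.1 CPM, so that the mice fed 10% RPS were all higher. It rose 2-fold (edgeR adjusted p = 0.0238). Outside those lists Mov10, an RNA helicase with antiviral activity, had 30.7, 47.5, 31.1, 30.5 and 29.2 CPM and 64.9, 106, 108, 52.4 and 73 CPM and rose 2.39-fold (edgeR adjusted p = 0.0251). Mouse 4 was again lowest in its group. Trim5, a restriction factor, rose 2.17-fold (edgeR adjusted p = 0.0328).

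None of the 12 B cell, 14 T and NK cell and 9 macrophage markers tested was called, and the estimates were above 0 for 12, 9 and 9 of them. Trgc2, a T cell receptor gamma constant gene chosen after its values were seen, fell 1.87-fold from 2.62 ± 0.453 CPM to 1.4 ± 0.239 CPM without overlap (SD, n = 5, edgeR adjusted p = 0.0251). Ccr2, a chemokine receptor of monocytes, had 2.28, 3.42, 3.34, 1.98 and 1.95 CPM and 5.12, 5.65, 7.36, 5.47 and 6.71 CPM and rose 2.34-fold (edgeR adjusted p = 0.0235). The chemokine Ccl8 rose 3.17-fold from 0.955 ± 0.457 CPM to 3.02 ± 1.35 CPM (SD, n = 5, edgeR adjusted p = 0.0405). Both were separated between diets. Cd274, which encodes the checkpoint ligand PD-L1, and Cytip, a protein of activated leukocytes, rose 1.83-fold and 1.96-fold. Tnfrsf14 and Tnfrsf25, receptors on lymphocytes, were called higher as 2 of 15 genes of the lymphoid list, against 0.547% of all genes. No gene of the MHC class I and class II lists was called. Outside them H2-T9, an MHC class I gene named after its values were seen, rose 1.71-fold from 1.66 ± 0.255 CPM to 2.83 ± 0.42 CPM (SD, n = 5, edgeR adjusted p = 0.033), and reads may have been divided between the many related class I genes. All 12 MHC class II genes were above 0, 8 at an unadjusted p under 0.05, with a median log2 fold change of 0.97. For MHC class I, 15 of 17 estimates were above 0 and 2 below, 6 were higher at p under 0.05 before adjustment, and the median was 0.16. For the type 1 interferon response 27 of 30 genes were above 0, 10 with p under 0.05 before adjustment, and none was called higher. With the B cell level as a covariate, the MHC class II median was 0.28 with 12 of 12 estimates above 0 and 2 at an unadjusted p under 0.05. In that fit the lymphoid list had no call and a median of 0.17 in place of 0.50, the type 1 interferon median was 0.33, with 25 of 30 above 0, and for the T and NK cell markers 13 of 14 estimates were below 0, with a median of -0.31.

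In the list of electrolyte and water transport 1 of 29 genes was called higher and none lower, against 0.547% of all genes higher and 0.495% lower. There 18 estimates were below 0, 10 of them with p under 0.05 before adjustment against 2 above 0. Over all genes, 9.75% were lower and 9.74% higher at that p. Slc5a8, a sodium-coupled transporter of butyrate and other monocarboxylates, had 113, 71.2, 62.7, 82.1 and 44.6 CPM with 0% RPS and 170.3, 194, 211, 100.3 and 138 CPM with 10% RPS. Mouse 4 fed 10% RPS lay below the highest mouse fed 0% RPS. The increase was 2.18-fold (edgeR adjusted p = 0.0275). Slc26a3, which exchanges chloride for bicarbonate, had 1199, 1287, 1337, 1271 and 916 CPM and 2048, 2459, 1615, 1528 and 1516 CPM without overlap and rose 1.53-fold (edgeR adjusted p = 0.0487). Slc13a2, a carrier of citrate and other dicarboxylates, rose 1.84-fold from 170.1 ± 28.9 CPM to 313 ± 76.7 CPM (SD, n = 5, edgeR adjusted p = 0.0289). In the list of short-chain fatty acid transporters and receptors, 2 of 14 genes were called higher, against 0.547% of all genes, and none lower, and 8 of the 14 estimates were below 0. Muc4, a membrane mucin, had 94, 83.9, 54.4, 61.6 and 77.3 CPM and 170.2, 227, 171, 87.3 and 141 CPM, with overlap only in mouse 4 fed 10% RPS, and rose 2.15-fold (edgeR adjusted p = 0.0275). It was the only call among 26 genes of mucins and mucin glycosylation, against 0.547% of all genes higher and 0.495% lower. Of the 26, 13 had estimates below 0, 10 of them with p under 0.05 before adjustment against 6 above 0. Mep1b, a brush border metalloprotease, rose 1.73-fold (edgeR adjusted p = 0.0407). It was 1 of 19 alkaline phosphatases and brush border enzymes, of which 12 had estimates below 0. Of the 19, 1 was called higher and 1 lower, against 0.547% of all genes higher and 0.495% lower.

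Of 27 drug-metabolizing cytochromes P450, 4 were called higher and 1 lower, against 0.547% of all genes higher and 0.495% lower. The median log2 fold change was -0.05, 15 estimates were below 0, and at an unadjusted p under 0.05 there were 6 higher and 7 lower. Cyp2d9 had 1.27, 2.31, 1.84, 1.24 and 0.975 CPM and 2.96, 9.53, 3.63, 3.49 and 2.93 CPM and rose 2.98-fold. Mouse 2 stood above the others of its diet. Cyp2d34 had 126, 145, 140.3, 74.5 and 91.7 CPM and 145, 239, 185, 187 and 215 CPM and rose 1.68-fold (edgeR adjusted p = 0.0487). The Cyp2d genes are closely related copies, and reads may have been divided between them. Cyp2c55, an arachidonic acid epoxygenase, had 5425, 4834, 5631, 5316 and 5334 CPM and 2803, 3542, 3206, 4191 and 3049 CPM and fell 1.58-fold (edgeR adjusted p = 0.00818). No mouse overlapped. Cyp4f15, of a family that hydroxylates fatty acids, rose 4.66-fold from 2.54 ± 1.01 CPM to 11.8 ± 7.33 CPM with overlap (SD, n = 5, edgeR adjusted p = 0.0267). With the smooth muscle level as a covariate its log2 fold change was 1.04 (unadjusted p = 0.0578) in place of 2.22.

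Growth factor signaling through the EGF receptor had the lowest median log2 fold change of the 41 pathway lists (-0.75). Of its 21 genes, 6 were called lower, against 0.495% of all genes, and none higher, and every mouse fed 10% RPS lay below every mouse fed 0% RPS in 10, against 3.2% of all genes. Areg, the ligand amphiregulin, had 159, 83.9, 112, 197 and 129 CPM with 0% RPS and 43.1, 25.6, 41.5, 43.3 and 67.1 CPM with 10% RPS. It fell 3.09-fold (edgeR adjusted p = 0.0267). Epha2, a receptor kinase induced by this pathway, had 149.9, 87.5, 77.2, 132 and 109 CPM and 36.5, 48.6, 30.2, 63 and 52.1 CPM and fell 2.42-fold (edgeR adjusted p = 0.0271). The feedback inhibitor Spry2 was tight within each diet, with 38.1, 36, 39.9, 41.5 and 37.8 CPM and 20.7, 20.3, 18.8, 25.1 and 25.8 CPM. It fell 1.75-fold (edgeR adjusted p = 0.00551). Dusp5, a phosphatase of ERK, fell 2.48-fold from 18.9 ± 5.2 CPM to 7.65 ± 2.22 CPM (SD, n = 5, edgeR adjusted p = 0.0267), and the ligand Btc fell 2.02-fold.

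The immediate early genes, which growth factors and stress induce within minutes, overlapped this list. Of 28, 5 were called lower, against 0.495% of all genes, and none higher. Another 6 had estimates above 0, of which Gadd45b (0.56 ± 0.15 (SE) on the log2 scale, edgeR adjusted p = 0.0623) and Ier5 had an unadjusted p under 0.05. Btg2, an antiproliferative gene, had 219.6, 162, 247, 238 and 187 CPM and 108, 99.8, 117, 124 and 149.6 CPM and fell 1.76-fold (edgeR adjusted p = 0.0251). All mice fed 10% RPS were lower. Maff, Gadd45a and Klf10 fell 1.92-fold, 1.84-fold and 1.58-fold. The promoters of Areg, Btg2, Epha2 and Maff each hold 1 match to TGACGTCA, the cyclic AMP response element, and are shown with the match in capitals as the 250 bases before the start of the canonical transcript.
Areg (chr5:91287201-91287450, plus strand): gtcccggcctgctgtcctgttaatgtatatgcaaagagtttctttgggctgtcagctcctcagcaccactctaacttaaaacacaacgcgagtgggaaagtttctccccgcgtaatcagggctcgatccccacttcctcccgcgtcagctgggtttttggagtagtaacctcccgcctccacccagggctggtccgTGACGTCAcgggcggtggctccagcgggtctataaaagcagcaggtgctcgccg
Btg2 (chr1:134006859-134007108, minus strand): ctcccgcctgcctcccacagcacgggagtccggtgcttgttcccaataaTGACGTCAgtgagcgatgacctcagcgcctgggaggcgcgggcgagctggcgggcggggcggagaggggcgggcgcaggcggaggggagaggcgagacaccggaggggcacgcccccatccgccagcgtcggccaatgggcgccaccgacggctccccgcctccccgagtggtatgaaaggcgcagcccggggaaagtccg
Epha2 (chr4:141028290-141028539, plus strand): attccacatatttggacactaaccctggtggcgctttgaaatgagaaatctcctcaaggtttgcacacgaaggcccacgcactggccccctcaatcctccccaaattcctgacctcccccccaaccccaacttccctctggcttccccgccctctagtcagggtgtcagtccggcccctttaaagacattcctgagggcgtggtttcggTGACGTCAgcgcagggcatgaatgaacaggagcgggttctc
Maff (chr15:79231470-79231719, plus strand): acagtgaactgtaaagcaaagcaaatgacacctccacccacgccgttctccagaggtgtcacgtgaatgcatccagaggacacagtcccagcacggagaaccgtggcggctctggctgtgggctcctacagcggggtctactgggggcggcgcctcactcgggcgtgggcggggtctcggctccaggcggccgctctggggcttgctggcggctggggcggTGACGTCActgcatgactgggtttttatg
TGACGTCA was found before 6 of the 76 lower genes (7.89%), 1 of the 84 higher genes (1.19%) and 1.88% of all 15336 promoters. The other 5 motifs, all sought on both strands, were TGACTCA of AP-1 (7 of 76 lower, 1 of 84 higher, 3.35% of all), ACGTG of hypoxia response elements (14, 16 and 19.6%), TTCNNNGAA of STAT proteins (6, 6 and 6.68%), the CArG box (1, 2 and 1.18%) and the direct repeat bound by PPAR proteins (0, 0 and 0.0522%). TGACGTCA also reads as itself on the other strand. A match is a description of the sequence, and these genes were picked after the search.

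Of 17 tested genes of plasminogen activation and matrix breakdown, 3 were called lower, against 0.495% of all genes, and none higher. Plau, the urokinase, had 40.3, 37.7, 27.1, 37.3 and 19.4 CPM with 0% RPS and 12.6, 10.4, 11.4, 14.7 and 18.9 CPM with 10% RPS. It fell 2.39-fold (edgeR adjusted p = 0.00818). Its receptor Plaur fell 2.76-fold from 35.2 ± 10.6 CPM to 12.8 ± 6.34 CPM (SD, n = 5, edgeR adjusted p = 0.0376) and tissue factor, F3, fell 1.9-fold (edgeR adjusted p = 0.0358). Ptgs2, the inducible prostaglandin synthase, fell 2.35-fold, and the groups overlapped for F3 and for Ptgs2. Cldn4, a tight junction claudin, had 232, 248, 239, 321 and 315 CPM and 81.6, 84, 107, 179.6 and 149.6 CPM. It fell 2.25-fold (edgeR adjusted p = 0.04). Sfn, an epithelial 14-3-3 protein, fell 2.02-fold (edgeR adjusted p = 0.0289).

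Hypoxia-inducible genes formed another group of lower calls. Of 30, 6 were called lower, against 0.495% of all genes, and none higher. The groups were separated downward for 9, against 3.2% of all genes. Slc2a1, the glucose transporter GLUT1, had 345, 303, 371, 329 and 418 CPM with 0% RPS and 148, 181, 182, 229.9 and 174 CPM with 10% RPS. No mouse overlapped, and the fall was 1.93-fold (log2 -0.95 ± 0.13 (SE), edgeR adjusted p = 0.00289). Ndrg1, a stress-induced gene of differentiated epithelium, had 516, 467, 703, 522 and 613 CPM and 155, 203, 185, 359 and 255 CPM and fell 2.44-fold (edgeR adjusted p = 0.0251). Hilpda, an inhibitor of lipolysis, fell 2.68-fold from 10.6 ± 3.71 CPM to 3.99 ± 0.933 CPM (SD, n = 5, edgeR adjusted p = 0.0263). Pfkfb4, a regulator of glycolysis, fell 1.65-fold and the droplet coat gene Plin2 fell 1.53-fold. Stc1 was the sixth.

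In the fatty acid oxidation and ketogenesis list 30 of 31 estimates were below 0, 20 with p under 0.05 before adjustment, against 9.75% of all genes, and 4 were called lower, against 0.495% of all genes. Pdk4, a kinase that inhibits pyruvate dehydrogenase, had 142, 119, 182, 112 and 97.5 CPM with 0% RPS and 39.4, 49.5, 43.3, 66.2 and 31.2 CPM with 10% RPS. It fell 2.84-fold (edgeR adjusted p = 0.0316). Dgat2, which makes triglyceride, had 194, 201, 279, 224 and 242 CPM and 79.8, 108, 119.8, 167 and 129 CPM and fell 1.89-fold (edgeR adjusted p = 0.0272). The groups were separate for both. Acaa1b of the peroxisome fell 1.94-fold with overlap, and Vldlr, a lipoprotein receptor, fell 1.55-fold. Of 20 retinoid genes 2, the binding proteins Rbp2 and Rbp7, were called lower, against 0.495% of all genes. Rbp2 had 54.8, 50.6, 73.3, 47.2 and 48.7 CPM and 16.9, 24.3, 17.2, 36.6 and 20.1 CPM and fell 2.39-fold (edgeR adjusted p = 0.00847). Alpi, an intestinal alkaline phosphatase, fell 1.7-fold (edgeR adjusted p = 0.0275). All 9 tested markers of small intestinal enterocytes had estimates below 0, and 3 of them were called lower, against 0.495% of all genes. In a fit with the smooth muscle level as a covariate, 7 of the 9 estimates were below 0 and 2 above. The median log2 fold change was then -0.32 in place of -0.76.

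Zg16, a lectin of mucus granules, had 2299, 2193, 2011, 2279 and 3130.2 CPM with 0% RPS and 1138, 1213, 1130.4, 1754 and 1398 CPM with 10% RPS. It fell 1.8-fold (edgeR adjusted p = 0.0251). Goblet cell markers summed to 12833, 12356, 9574, 11734 and 11768 CPM and 8029.7, 7789, 7623, 9267 and 7995 CPM, and the groups did not overlap (two-sided exact permutation p = 0.00794, the smallest this design allows, adjusted p = 0.19). Cdkn1a, a cell cycle inhibitor, fell 1.6-fold from 563 ± 76.9 CPM to 351 ± 69.9 CPM (SD, n = 5, edgeR adjusted p = 0.0251). Mt1, a metallothionein, and Hmox1, the heme oxygenase, fell 1.97-fold and 1.85-fold. The clock gene Cry1 fell 1.67-fold (edgeR adjusted p = 0.0487).

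**Figure D3:**
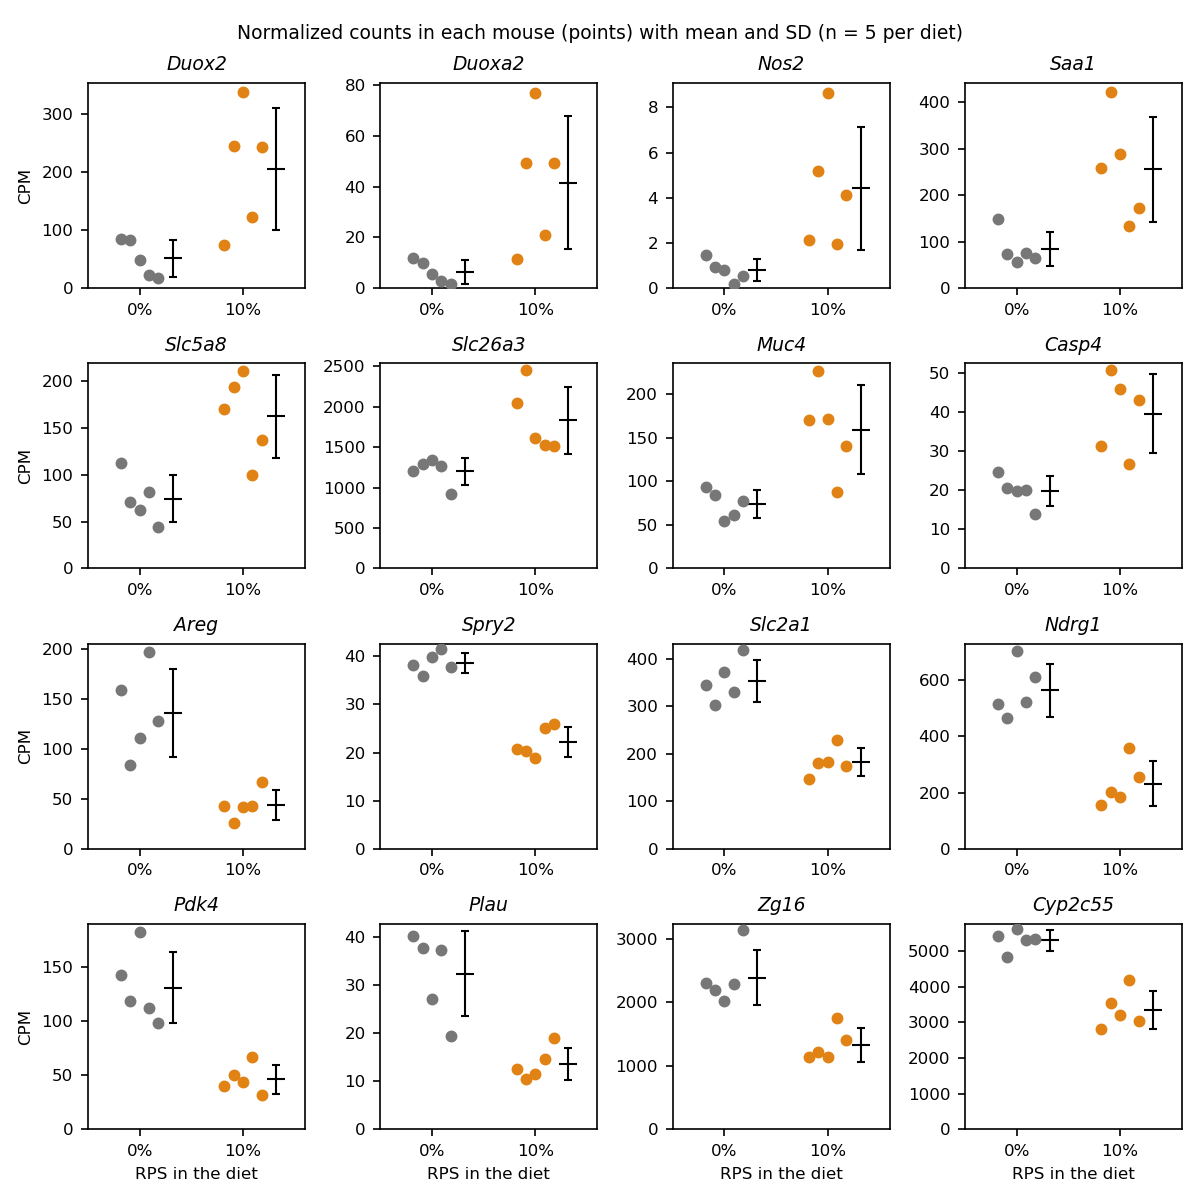
Normalized counts (CPM, linear axes from 0) of 16 called genes in each mouse, gray for 0% and orange for 10% RPS, with the mean and SD at the right of each group. The first 8 genes are higher and the last 8 lower with 10% RPS, and Duox2, Duoxa2, Saa1, Slc5a8 and Muc4 show overlap between the groups.

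Of 12 smooth muscle markers 3 rose, against 0.547% of all genes, and all 12 had estimates above 0 (median log2 fold change 0.61). Actg2, enteric actin, had 395, 245, 262, 298 and 337 CPM with 0% RPS and 899, 886, 1004, 380.3 and 555 CPM with 10% RPS. Mouse 4 fed 10% RPS lay among the mice fed 0% RPS. It rose 2.43-fold (edgeR adjusted p = 0.0358). Synm and Synpo2, which link filaments in muscle, rose 3.06-fold and 1.84-fold with overlap. Among collagens and elastic fiber genes 27 of 30 estimates were above 0, and 3 were called higher, against 0.547% of all genes. These were Fbn1, Col12a1 and Col5a2, with rises of 2.09-fold, 1.78-fold and 1.51-fold, the last with overlap. With the smooth muscle level as a covariate 22 of the 30 estimates were above 0, 2 in place of 19 were higher at an unadjusted p under 0.05, and the median was 0.14 in place of 0.49. Fbn1, the fibrillin of microfibrils, had 9.93, 9.2, 9.98, 8.56 and 9.81 CPM and 24.7, 29.3, 20.2, 11.3 and 13.6 CPM. The histone genes H1f2 and H2bc6 rose 1.6-fold and 1.89-fold, the latter with overlap.

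**Figure D4:**
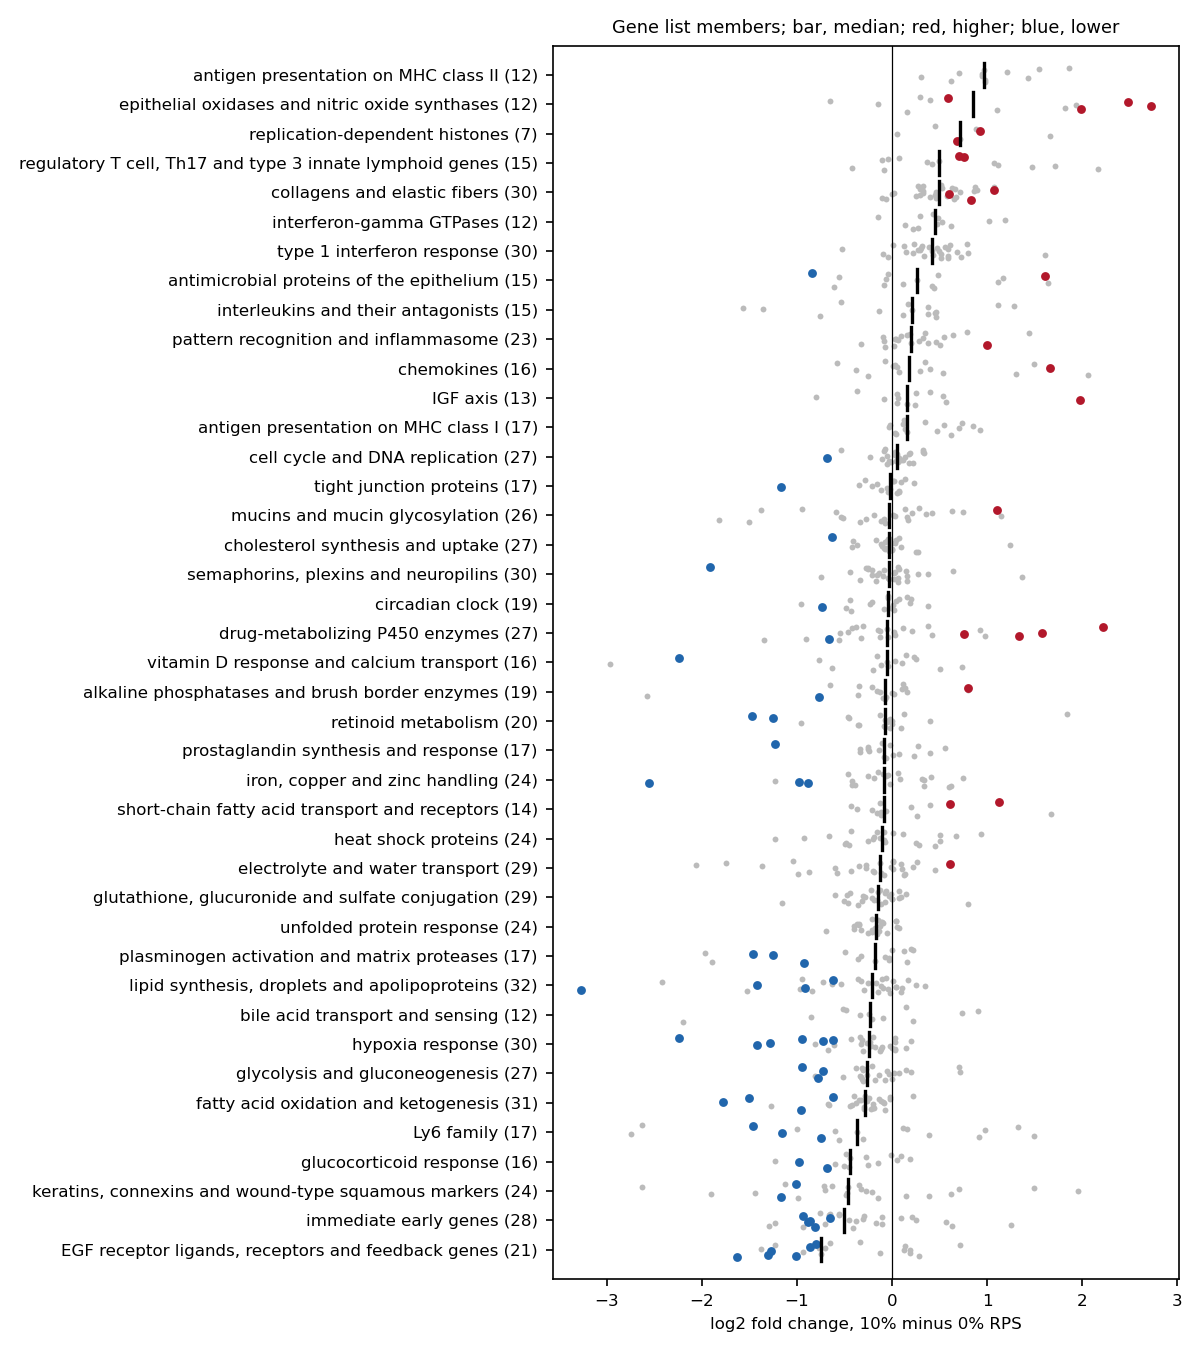
Log2 fold change (10% minus 0% RPS) of the tested members of the 41 pathway lists, with the number tested in parentheses and a black bar at the list's median. Red and blue points are genes called higher and lower, and the medians run from 0.97 for antigen presentation on MHC class II to -0.75 for the EGF receptor list.

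As the smooth muscle level was higher in most mice fed 10% RPS, each gene was also fitted with the level of that list as a covariate. The edgeR test then called 0 genes in either direction, 2756 genes had an unadjusted p under 0.05, and the lowest adjusted p was 0.128. All 160 genes kept their sign, 148 had an unadjusted p under 0.05, and the median ratio of the new to the old log2 fold change was 0.84 in the fit with the covariate. The fold change moved by more than 1.5 times for 11 of the 160. The log2 fold changes with the covariate were 1.55 for Nos2, 1.04 for Cyp4f15, 0.95 for Igfbp2, 0.33 for Actg2, 0.49 for Synm, 0.23 for Synpo2 and 3.55, in place of 4.20, for the olfactory receptor gene Or5b106. Among the lower genes they were -2.62 for Apoa4, -1.20 for Olr1, -1.06 for Plscr1l1 and -1.31 for Sema7a. Actg2, Synm and Synpo2 are among the 12 markers that form the covariate, so their shrinkage was built into the fit. DESeq2 was run without the covariate, where its Wald test called 214 higher and 154 lower. Mature colonocyte markers summed to 48918, 46722, 49362, 52357 and 52552 CPM with 0% RPS and 38359, 50969, 33714, 42289.9 and 36306 CPM with 10% RPS (two-sided exact permutation p = 0.0317, adjusted p = 0.19). Car1 gives the largest part of this sum, and of the 12 markers 6 had estimates above 0 and 6 below, with a median log2 fold change of -0.03. The levels of other cell types, apart from the B cells, were not put into a fit.

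**Figure D5:**
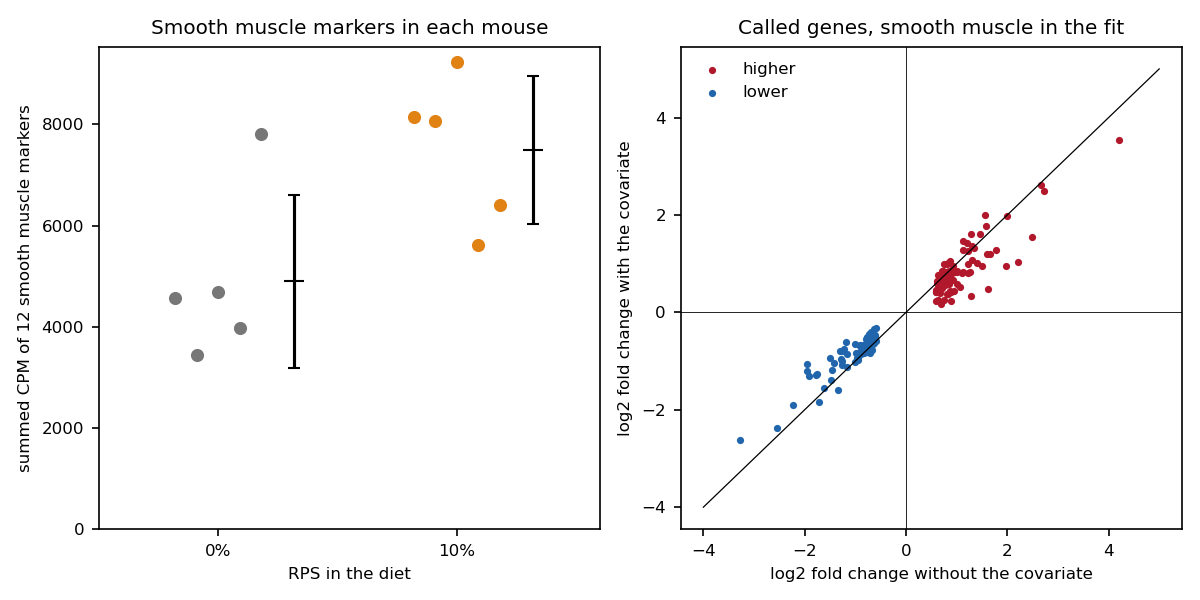
Left, summed CPM of the 12 smooth muscle markers in each mouse, with mean and SD (n = 5 per diet). Right, log2 fold change of the 160 called genes without (horizontal) and with (vertical) that level in the fit. All points stay on their side of 0, and 148 of the 160 have an unadjusted p under 0.05.

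Other calls stood outside the lists. Nags, which makes the activator of the urea cycle, had 3.03, 3.27, 2.7, 3.56 and 3.01 CPM with 0% RPS and 4.36, 9.94, 9.89, 5.56 and 6.79 CPM with 10% RPS and rose 2.35-fold (edgeR adjusted p = 0.00818). Tm6sf1, a membrane protein of lysosomes, rose 2.63-fold (edgeR adjusted p = 0.0177), and Akap5, Anxa2r1, Ms4a10 and Ly6g2 rose 2.48-fold, 2.74-fold, 2.95-fold and 2.19-fold. The lower gene with the lowest p, 4931406C07Rik, had 669.7, 563, 674, 663 and 561 CPM and 340.4, 374, 359, 423 and 339.6 CPM and fell 1.71-fold (edgeR adjusted p = 0.00289). Dmp1 and Ccdc87 fell 3.37-fold and 2.55-fold. Of the listed glycolysis genes, Gapdh, often used as a stable reference, was counted at only 16.8 ± 3.42 CPM against 9.79 ± 1.9 CPM (SD, n = 5) and fell 1.71-fold. That level is low for this gene, which has many processed copies in the genome, so its value is uncertain.

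Of the genes with the largest separated changes, Ighg1, an immunoglobulin constant region, had a log2 fold change of 2.66, and Igfbp2, a binding protein of insulin-like growth factors, of 1.98. On the lower side Olr1, Plscr1l1, Sema7a, Creb3l3, Stc1 and Rbp7 had -1.95, -1.94, -1.92, -1.78, -2.24 and -1.47. Apoa4 and Hephl1 were near the smallest countable level with 10% RPS, at 0.246 ± 0.291 CPM and 0.104 ± 0.0814 CPM (SD, n = 5), against 2.2 ± 0.27 CPM and 0.628 ± 0.294 CPM with 0% RPS.

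Further calls were chosen for description after their values were seen. Clec2h, a lectin-like ligand of the gut epithelium, had 384, 368, 349, 285 and 246 CPM with 0% RPS and 479, 703, 566, 408 and 513 CPM with 10% RPS. It did not overlap and rose 1.63-fold (edgeR adjusted p = 0.0251). Grem1, a secreted antagonist of BMP, had 10.2, 11.5, 9, 7.42 and 8.87 CPM and 15.6, 16.2, 22.2, 16.3 and 20.6 CPM, and rose 1.93-fold (edgeR adjusted p = 0.0251). Parp14, an interferon-inducible ADP-ribosyltransferase, Rel, a subunit of NF-kappaB, and C4b, a complement component, rose 1.74-fold, 1.66-fold and 1.65-fold, and the groups overlapped for all of them. Retnla, a cytokine-like product of the epithelium and of macrophages, rose 2.83-fold with overlap (edgeR adjusted p = 0.0334). Atg16l2, a relative of an autophagy gene, rose 1.83-fold without overlap (edgeR adjusted p = 0.0251).

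Among the lower genes, Abcb1a, the drug efflux pump P-glycoprotein, had 911, 910.1, 1201, 990.1 and 977 CPM with 0% RPS and 542, 656, 451, 710.0 and 539 CPM with 10% RPS. No mouse overlapped, and it fell 1.72-fold (edgeR adjusted p = 0.0111). Gprc5a, an orphan receptor of epithelia, had 605, 495, 496, 526 and 635 CPM and 197, 231, 224, 424 and 311 CPM, again without overlap, and fell 1.99-fold (edgeR adjusted p = 0.0251). Ckmt1, mitochondrial creatine kinase, fell 1.53-fold from 650.4 ± 89.1 CPM to 425 ± 82.5 CPM (SD, n = 5, edgeR adjusted p = 0.0251). Ces2a, a carboxylesterase, fell 2.28-fold although its groups overlapped (edgeR adjusted p = 0.048). The kinases Map2k3 and Plk3 fell 1.55-fold and 1.78-fold, and Slc1a4, a neutral amino acid transporter, fell 1.87-fold. Of 17 listed genes of the Ly6 family, 3 were called lower, against 0.495% of all genes, among them Ly6g6c (2.24-fold, edgeR adjusted p = 0.0348) and, with overlap, Ly6c1 (1.68-fold, edgeR adjusted p = 0.0451). Another 7 had estimates above 0, 2 of them with p under 0.05 before adjustment, and Ly6g2, which rose, was not on the list.

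Several lists held no called gene. In the unfolded protein response 20 of 24 estimates were below 0, with 5 at p under 0.05 before adjustment. Of 24 heat shock genes 15 were below 0, and of 29 conjugating enzymes 23 were, 10 of them at p under 0.05 before adjustment. Among bile acid genes Slc10a2, the ileal bile acid carrier, had a log2 fold change of 0.90 ± 0.25 (SE) (edgeR adjusted p = 0.0641) and Nr1h4, the receptor FXR, one of -0.34 ± 0.10 (SE) (edgeR adjusted p = 0.0698). Il1rn, the interleukin 1 antagonist, had -1.56 ± 0.53 (SE) (edgeR adjusted p = 0.124) and Il22ra2, the soluble decoy of interleukin 22, 1.28 ± 0.44 (SE) (edgeR adjusted p = 0.125). None of these passed the test. In the cell cycle list the 1 called gene of 27 was Cdkn1a, against 0.495% of all genes called lower, and 17 estimates were above 0.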

How the data were processed

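Cecal RNA from 20 mice on 4 diets (5 each) was sequenced from stranded poly(A) libraries. The authors trimmed low-quality bases, dropped reads with several ambiguous bases, aligned reads to GRCm39 with CLC Genomics Workbench, and deposited raw counts per gene. The annotation release, the strand setting and the treatment of multiply mapped reads were not given in the sources used here. Of 19887 gene identifiers, 19827 were named from GENCODE mouse release M39, which has the same build. In R 4.3.3, edgeR 4.0.16 was fitted to all 20 mice (minimum count 10, minimum total 15, TMM, robust quasi-likelihood), and 10% RPS was contrasted with 0% RPS. A gene was called when its p, adjusted by Benjamini-Hochberg, was 0.05 or less and its fold change 1.5 or more, and others are given as values. Standard errors came from the F statistic. Single measures were compared by exact permutation. The model was tested on simulated data. Alternatives were DESeq2 scaling and Wald test, other filters, covariates and leaving out each mouse. The floor of 3 counts covers counting error only and was 0.141 CPM in the smallest library of the 10. The SD and SE values also hold the spread between mice.

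Named genes were the 15 higher and 15 lower genes with the largest change among called genes whose groups did not overlap, the called members of each list (up to 6, else the 3 with the lowest p), list members used to check the tissue, and called neighbors. Some genes that the rule named are not reported here. Members and lists were chosen with earlier results of these data known. Of the 160 called genes, 68 are on a list.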

Additional observations from a re-analysis of the deposited data

Results flagged for a closer look

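A mouse was set apart when its gap to the nearest other mouse of its diet exceeded 0.71 of the range of the 5. This held for 37 of 362 groups of values examined (10.2%), where chance alone gives about 1 in 20, and the genes share mice and are not independent. Mouse 1 fed 0% RPS stood apart for Smoc2 at 15.1 CPM against 13.2 to 13.7 CPM in the other 4, Fabp4 at 177 CPM against 32.7 to 70.8 CPM in the other 4, and Lpl at 187 CPM against 60.1 to 89.4 CPM in the other 4. The same mouse did so for Saa1 at 149.6 CPM against 57.1 to 76.1 CPM in the other 4, Ly6c1 at 34.1 CPM against 15.1 to 20.1 CPM in the other 4, and Nr1h4 at 182 CPM against 137 to 143 CPM in the other 4. It also did for the summed adipocyte markers at 560.5 CPM against 180.3 to 275 CPM in the other 4. Mouse 2 fed 0% RPS stood apart for Anxa2r1 at 0.995 CPM against 0.402 to 0.571 CPM in the other 4, Mov10 at 47.5 CPM against 29.2 to 31.1 CPM in the other 4, and Lyz1 at 17.4 CPM against 1.26 to 3.04 CPM in the other 4. The same mouse did so for Cr2 at 18.6 CPM against 0.258 to 2.64 CPM in the other 4, Cd22 at 31.8 CPM against 0.788 to 5.79 CPM in the other 4, and Fcrla at 9.83 CPM against 0.574 to 2.18 CPM in the other 4. It also did for Cd4 at 10.2 CPM against 2.74 to 4.33 CPM in the other 4, Cd8b1 at 1.04 CPM against 0.143 to 0.235 CPM in the other 4, and H2-DMa at 20.1 CPM against 10.5 to 13.3 CPM in the other 4. It also did for the summed B cell markers at 331 CPM against 14.4 to 57.1 CPM in the other 4, and the summed T and NK cell markers at 74 CPM against 34.2 to 44.4 CPM in the other 4. Mouse 3 fed 0% RPS stood apart for Rbp2 at 73.3 CPM against 47.2 to 54.8 CPM in the other 4, and Plin2 at 285 CPM against 181 to 205 CPM in the other 4. Mouse 4 fed 0% RPS stood apart for Dmp1 at 9.5 CPM against 2.34 to 4.16 CPM in the other 4. Mouse 5 fed 0% RPS stood apart for Zg16 at 3130.2 CPM against 2011 to 2299 CPM in the other 4, Ascl2 at 7.95 CPM against 2.82 to 3.79 CPM in the other 4, and Slc10a2 at 39.8 CPM against 68.3 to 78.4 CPM in the other 4. The same mouse did so for Mgst3 at 1017 CPM against 627 to 709.2 CPM in the other 4, and the summed smooth muscle markers at 7819 CPM against 3448 to 4681 CPM in the other 4. Mouse 2 fed 10% RPS stood apart for Cyp2d9 at 9.53 CPM against 2.93 to 3.63 CPM in the other 4, Cd22 at 2.53 CPM against 42.2 to 54.1 CPM in the other 4, and Ciita at 1.76 CPM against 4.53 to 5.44 CPM in the other 4. The same mouse did so for the summed B cell markers at 27.3 CPM against 349 to 454 CPM in the other 4. Mouse 3 fed 10% RPS stood apart for Psmb9 at 23.4 CPM against 13.8 to 16.6 CPM in the other 4. Mouse 4 fed 10% RPS stood apart for Apoa4 at 0.754 CPM against 0.0258 to 0.209 CPM in the other 4 (the lowest of these below 3 counts), Cidec at 71.1 CPM against 21.4 to 34.6 CPM in the other 4, and Fabp4 at 137 CPM against 13.7 to 33.8 CPM in the other 4. The same mouse did so for Lpl at 103 CPM against 54.1 to 63.3 CPM in the other 4, the summed goblet cell markers at 9267 CPM against 7623 to 8029.7 CPM in the other 4, and the summed adipocyte markers at 413 CPM against 89.3 to 152 CPM in the other 4.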

How the results depend on the processing

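Counts of called genes varied with the processing. Leaving out 1 mouse gave 4 to 233 higher and 10 to 139 lower genes. DESeq2's Wald test called 214 and 154, 1 surrogate variable 238 and 159, the smooth muscle level as a covariate 0 and 0, and a test of the fold change against 1.5 called 0 and 0 (edgeR, 365 genes at an unadjusted p under 0.05). A fit of only the 10 mice called 41 higher, the B cell level as a covariate 48 lower, and no fold change threshold 175 lower. The causes were not tested. The other 13 of 24 counts stayed within 1.5 times, among them the 57 lower genes of the fit of only the 10 mice. That fit shared 34 higher and 45 lower genes with the calls of the main fit. With the B cell level as a covariate, log2 fold changes turned to -0.0139 for Fcrla, -0.0377 for Cd4, -0.431 for Cd8b1, -0.0155 for Il7r and -0.106 for Csf3r, and with smooth muscle that of Mmp9 turned to 0.0988. Fcrla is among the 12 B cell markers that form the covariate, so its value near 0 was built into the fit. Leaving out 1 mouse moved Mmp9 between -0.190 and 0.152 and Cela1 between -0.0256 and 0.0366. No paired analysis was possible because the mouse numbers differ between diets. Among 157 named genes, direction held but the call was lost in 462 of 1570 values with 1 mouse left out and in 173 of 1555 under the other alternatives. These totals include named genes that were not called and so had no call to lose. The 160 called genes kept their call in a median of 3 of the 10 fits with 1 mouse left out. Of the 160, 47 kept it in 5 or more of these fits. Genes under 3 counts in a mouse could not be measured at this depth.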
